A study of Saccharomyces cerevisiae with 4 samples.

Results

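Ribosome biogenesis genes encode the factors that make ribosomes without being part of the finished particle. Their RNA was compared in Saccharomyces cerevisiae W303-1A cells carrying either CadA, the P-type ATPase with which Listeria monocytogenes exports cadmium, or the CadA mutant D398A. The genes were chosen by symbol. A probe needed exactly 1 symbol in the platform annotation, a value on all 4 arrays and a symbol of a set of name families used for these factors (UTP, NOP, RRP, NOC, DBP, MAK, TSR and others). Probes of a gene were averaged. This gave 66 genes from 70 probes, out of 5946 features (3099 named genes and the probes without a single name). The rule used names and no measured level, but it was set with earlier results of these data known. The R64 annotation holds 113 genes whose symbols fit the same pattern, and the remaining ones were not analysed here.

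Cells of both kinds grew in minimal medium at 30 °C until the OD600 was 0.4 and then spent 1 h with 1 µM cadmium. No array of a culture without cadmium was analysed here, so each ratio compares the strains under the metal and not the metal with its absence. Each of 4 two-colour arrays received RNA of the CadA and the D398A strain. CadA RNA carried Cy5 and D398A RNA Cy3 on arrays 1 and 3, and the dyes were swapped on arrays 2 and 4. No label ties the arrays to separate cultures. The p-values therefore reflect only how far the 4 arrays differ, which could be technical variation.

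The deposited values are log ratios, read here as log2, and the dye in the numerator is not stated. Either of 2 readings is possible. In the leading one the sign was turned by the dye labels, which leaves arrays 2 and 4 as deposited and flips arrays 1 and 3, so that all 4 arrays run in the same strain direction if the table is a plain dye ratio. A positive turned value then stands for more RNA in the CadA strain if Cy3 is the numerator, and in the D398A strain if it is Cy5. In the other reading the table had already been turned, the values as deposited hold the strain difference, and the turned values hold dye effects. No strain is therefore named for a side, and values are called above or below 0. Over all features, 3.40% lay above 0 and 3.58% below 0 on all 4 arrays in turned signs. As deposited these shares were 12.4% and 12.3%. The arrays thus agreed in sign less often in the leading reading, and the cause was not tested.

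A ribosome is built in the nucleolus from a long precursor RNA. The small-subunit processome, a large particle around the U3 small nucleolar RNA, folds and cuts the part that becomes the 40S subunit. A separate series of particles, opened and remodelled by helicases, GTPases and AAA ATPases, matures the 60S subunit on its way to the cytoplasm. Small nucleolar ribonucleoproteins (snoRNPs) guide chemical modification of the RNA, box C/D particles for methylation and box H/ACA particles for pseudouridine, and the exosome trims and degrades RNA ends. In budding yeast these genes are a classic co-regulated set that is repressed under many stresses together with the ribosomal protein genes. By known role, the 66 genes comprised 24 of the small-subunit processome or 40S maturation, 30 of 60S assembly, 3 of snoRNPs, 4 of the exosome, 1 acting on both subunits and 4 with another or unplaced role.

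No ribosome biogenesis gene passed the test in either reading. With limma's moderated test of the mean over 4 arrays, 0 of 66 genes had an adjusted p below 0.05 in turned signs, against 0.00% of all 5946 features, and 0 had an unadjusted p below 0.05, against 1.88% of features. With ordinary statistics per gene, 2 genes did so before adjustment, DBP7 and IMP4, and 0 after it. The share of all features under ordinary statistics is not given here, so these 2 genes are not set apart from the array. The turned means were below 0 for 42 of the 66 genes (63.6%), against 52.6% of all features, and their median was -0.11, against -0.01 over all features. After each print block was centred, 48 of the 66 means lay below 0, against 51.5% of features. The gene means ran from -0.61 to 0.83 with an SD over genes of 0.28, against 0.30 over all features, close to the spread of the array as a whole.

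The sign agreed on all 4 arrays for few genes. In turned signs 7 of the 66 lay below 0 on every array (10.6%, against 3.58% of all features) and 0 lay above 0 on every array (against 3.40%). The 7 were RRP1, SSF1, NOP7 and DBP7 of the 60S group, SOF1 and IMP4 of the small-subunit group, and DBP2. After print block centring 3 genes lay below 0 on every array, RRP1, SSF1 and ROK1 (4.55%, against 3.67% of features), and 1 above, UTP10 (against 4.59%). ROK1 and UTP10 were picked out after their values were seen. A value of size 2 or more on some array was found for 7 genes (10.6%, against 6.74% of features, the same in both readings), namely LOC1, NOC3, REI1, RLP7, RPF2, ENP1 and TSR4.

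**Figure D1:**
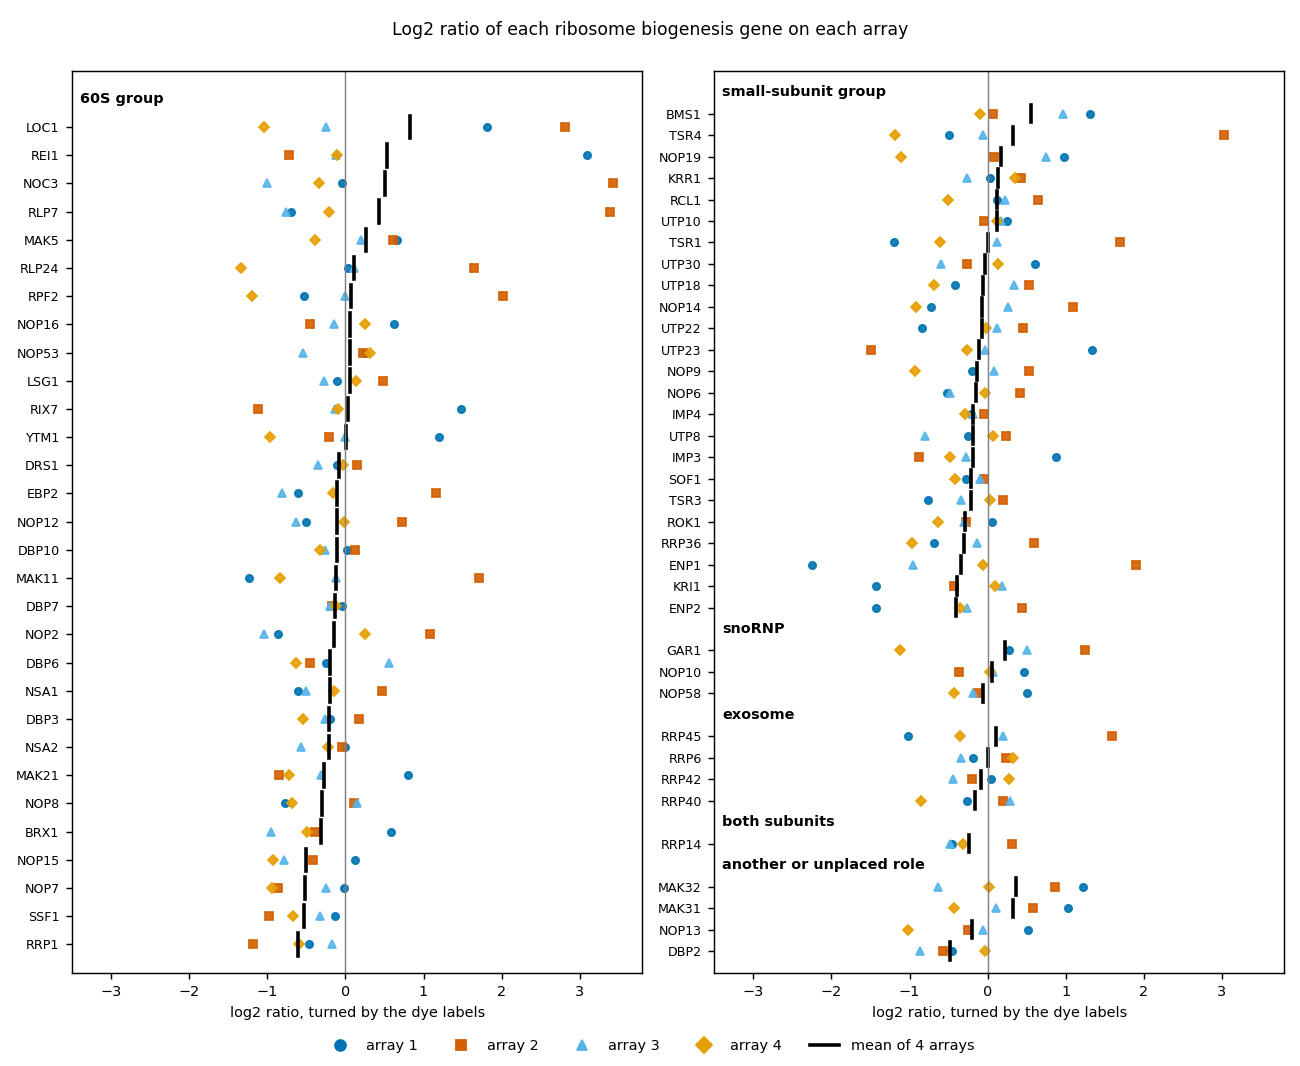
Turned log2 ratio (x axis) of each of the 66 genes (rows) on arrays 1 to 4 (coloured symbols), with the mean of the 4 arrays as a black bar. The 60S group is on the left and all other genes are on the right. Means lie between -0.61 (RRP1) and 0.83 (LOC1), and the largest single values, above 2, stand on arrays 1 and 2.

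Genes of 60S assembly held both ends of the range. RRP1, a nucleolar protein needed to process the precursor of the large-subunit RNA, read -0.47, -1.18, -0.18 and -0.60 on arrays 1 to 4. It was below 0 on every array, lowest on array 2, with a mean of -0.61 ± 0.42 (SD, n = 4) and a limma adjusted p of 1.00. SSF1, of the Brix family of RNA-binding assembly factors, read -0.13, -0.98, -0.33 and -0.67, a mean of -0.53 ± 0.38 (SD, n = 4). Its near-identical copy SSF2 may hybridise to the same probe, so the value may belong to both genes.

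NOP7, which acts with Erb1 and Ytm1 in an early 60S particle, read -0.02, -0.87, -0.25 and -0.94, with a mean of -0.52 ± 0.46 (SD, n = 4). Arrays 2 and 4 carried most of that mean, and array 1 stood near 0. Its partner YTM1 averaged 0.01 ± 0.90, highest on array 1 and -0.97 on array 4. The 2 measured genes of that complex therefore parted on array 1 and lay together on array 4 before print block centring. The print block of YTM1 had a median of 0.57 on array 1. After centring neither gene lay below 0 on array 1, and YTM1 averaged -0.06 ± 0.55. NOP15, an RNA-binding protein of the same early particles, read 0.12, -0.41, -0.79 and -0.93 (mean -0.50 ± 0.47), below 0 on 3 arrays.

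The helicase and ATPase genes of the group sat close to 0. DBP7, a DEAD-box helicase, had the narrowest spread of the genes below 0 on every array, with -0.04, -0.17, -0.20 and -0.12 (mean -0.13 ± 0.07, SD, n = 4). That narrow spread was not kept after block centring, where its mean was -0.04 ± 0.25. DBP3, DBP6, DBP10 and DRS1, also DEAD-box helicases, averaged -0.21, -0.20, -0.11 and -0.09. MAK5 was the exception, with a mean of 0.27 ± 0.48. Together with ROK1 and DBP2, 7 of 8 measured DEAD-box genes had a mean below 0 (median -0.16), against 52.6% of all features. After block centring their median was -0.07. As deposited 4 of the 8 were below 0, against 53.5% of all features, with a median of -0.0005. LSG1, a cytoplasmic GTPase of the last 60S steps, averaged 0.06 ± 0.33, and RIX7, an AAA ATPase, 0.03 ± 1.07. RIX7 had its highest value on array 1 and its lowest, -1.11, on array 2.

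Of the 5 highest means of the 66 genes, 4 also belonged to 60S assembly, and each was carried by array 1, array 2 or both. LOC1, a 60S factor that also acts in messenger RNA localisation, read 1.81, 2.81, -0.25 and -1.05, a mean of 0.83 ± 1.79 (SD, n = 4) and 0.17 without array 2. NOC3 read -0.04, 3.42, -1.01 and -0.33, so its mean of 0.51 ± 1.98 turned to -0.46 without array 2. RLP7, a nucleolar relative of a ribosomal protein, read -0.69, 3.38, -0.77 and -0.20, and its mean of 0.43 ± 1.99 turned to -0.56 without array 2. In both, 3 of the 4 arrays lay below 0 and array 2 alone decided the sign.

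REI1, a cytoplasmic zinc-finger protein that helps to recycle an export factor from late 60S particles, was high on array 1 alone. It read 3.09, -0.73, -0.12 and -0.10, a mean of 0.54 ± 1.73 (SD, n = 4), or -0.32 without array 1. Its 2 probes lie in different print blocks and both were high on array 1, at 3.54 and 2.65, where the medians of their blocks were 0.08 and 0.41. The high value on array 1 was therefore seen by both spots and is larger than the block level. RPF2, a Brix protein that brings the 5S RNA into the particle, read -0.53, 2.02, -0.01 and -1.20 and averaged 0.07 ± 1.39, or -0.58 without array 2.

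The NOP2 gene, whose product is a methyltransferase of the large-subunit RNA, changed sign with the dye orientation in turned signs only. It read -0.87, 1.08, -1.04 and 0.24 in turned signs (mean -0.14 ± 1.00). As deposited these are 0.87, 1.08, 1.04 and 0.24, all above 0. NOP12 and EBP2, also of the 60S group, were above 0 on 3 of 4 arrays as deposited, with deposited means of 0.46 and 0.60. Which reading holds for these genes was not tested.

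Small-subunit genes had means between -0.40 and 0.56, and 18 of 24 were below 0 (75.0%, against 52.6% of all features). After block centring 16 of 24 were below 0, against 51.5% of features, and as deposited 11 of 24 were, against 53.5%. SOF1, a WD-repeat protein of the processome, read -0.28, -0.04, -0.10 and -0.41 (mean -0.21 ± 0.17, SD, n = 4). IMP4, which binds the U3 RNA with Imp3, read -0.21, -0.05, -0.18 and -0.29 (mean -0.18 ± 0.10). All 8 of these values were below 0, but the means were no larger than the SD over genes. IMP3 averaged -0.19 ± 0.75, with 0.87 on array 1 and -0.88, -0.28 and -0.49 on the others.

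The ends of the group were less even across arrays. BMS1, the GTPase of the processome, read 1.31, 0.06, 0.96 and -0.10 and had the highest mean, 0.56 ± 0.69 (SD, n = 4), or 0.31 without array 1. It was high on the arrays with CadA in Cy5 and near 0 on the others. ENP2, a nucleolar WD-repeat protein, read -1.42, 0.44, -0.27 and -0.35 (mean -0.40 ± 0.77) and had the lowest mean, carried by array 1. ENP1, which stays with the pre-40S particle into the cytoplasm, read -2.25, 1.90, -0.96 and -0.06. Its mean of -0.34 ± 1.74 was 0.30 without array 1 and -1.09 without array 2, so no side can be given.

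Genes of the UTP subcomplexes of the processome had means near 0. UTP10 and UTP8 of the UTP-A subcomplex averaged 0.12 ± 0.12 and -0.19 ± 0.46. UTP18 averaged -0.06 ± 0.58 and UTP22 -0.07 ± 0.55. TSR3, which modifies a base of the small-subunit RNA, averaged -0.22 ± 0.43 and TSR4, a chaperone of a small-subunit protein, 0.32 ± 1.86. TSR4 read -0.50, 3.03, -0.06 and -1.19, and without array 2 its mean was -0.58. The remaining genes of the group (KRI1, RRP36, ROK1, NOP6, NOP9, UTP23, NOP14, UTP30, TSR1, RCL1, KRR1 and NOP19) had means between -0.39 and 0.17.

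The snoRNP group was small and close to 0. GAR1 and NOP10 of the box H/ACA particle averaged 0.22 ± 0.99 and 0.05 ± 0.34, and NOP58 of the box C/D particle averaged -0.06 ± 0.40 (SD, n = 4 each). GAR1 read 0.27, 1.25, 0.50 and -1.13, above 0 on 3 arrays, and its mean was -0.12 without array 2. NOP58 has 2 probes, with means of 0.003 and -0.13, which read 1.05 and -0.04 on array 1. The group is too small for its median to say more than these 3 values do.

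The exosome genes had means within 0.16 of 0. RRP6, the nuclear exonuclease, averaged 0.01 ± 0.32, RRP42 averaged -0.08 ± 0.31, RRP40 averaged -0.16 ± 0.52 and RRP45 averaged 0.11 ± 1.11. RRP45 read 1.59 on array 2, and its mean was -0.39 without it. RRP14, which acts in both subunit pathways, read -0.45, 0.31, -0.48 and -0.31 (mean -0.23 ± 0.37), and its 2 probes averaged -0.28 and -0.19.

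Among the genes taken up by name but with another or unplaced role, DBP2 was the lowest. DBP2, an RNA helicase of transcription and RNA turnover, read -0.46, -0.57, -0.86 and -0.04, a mean of -0.48 ± 0.34 (SD, n = 4). NOP13, a nucleolar RNA-binding protein, averaged -0.20 ± 0.64, and its 2 probes disagreed at -0.42 and 0.01. MAK31, a subunit of an amino-terminal acetyltransferase, and MAK32, needed to maintain a double-stranded RNA virus, averaged 0.32 ± 0.63 and 0.37 ± 0.84. Without these 4 genes the median of the others was again -0.11.

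The arrays differed in how the genes lay as a set. In turned signs 37, 26, 47 and 52 of the 66 genes were below 0 on arrays 1 to 4, or 56.1%, 39.4%, 71.2% and 78.8%. The shares for all features were 48.3%, 54.2%, 50.9% and 48.1%. The medians of the 66 genes were -0.11, 0.20, -0.19 and -0.34, with an SD of 0.23 over the arrays. The median on array 2 thus lay on the other side of 0 from those on arrays 1, 3 and 4, and the genes stood farthest from the other features on array 4, where the highest of them, KRR1, read 0.35.

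**Figure D2:**
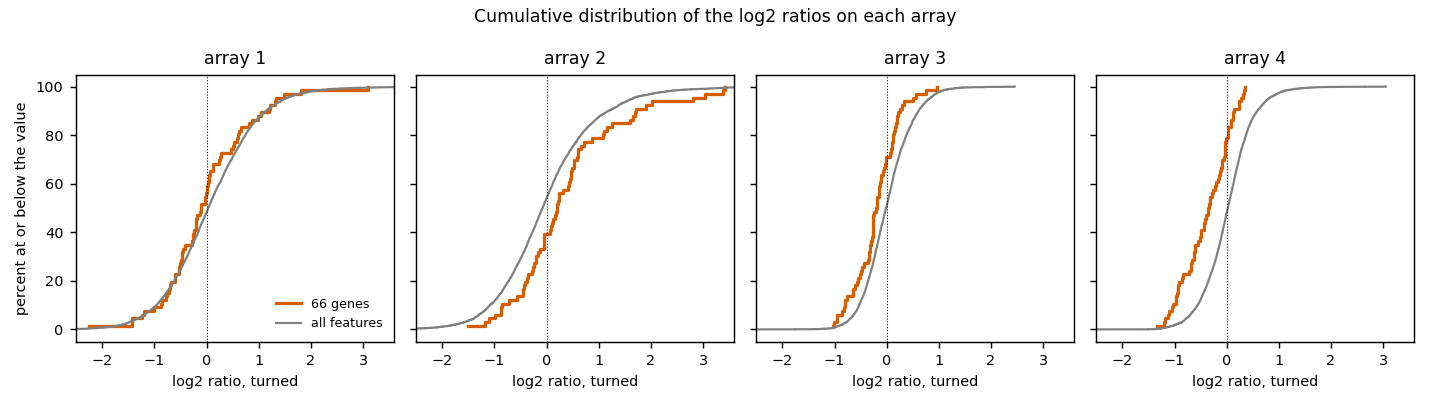
Cumulative share (y axis, percent) of the 66 genes and of all features at or below each turned log2 ratio (x axis), with 1 panel per array. At the middle of the curves the 66 genes lie left of all features on arrays 3 and 4, with medians of -0.19 and -0.34, and right of them on array 2, with a median of 0.20.

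Arrays 3 and 4, which carry opposite dyes, showed most 60S genes on the same side in turned signs only. As deposited 4 of 30 60S genes were below 0 on array 3 and 26 of 30 on array 4. The shares for all features were 49.1% and 48.1%. In turned signs 22 of 30 60S genes (73.3%) were below 0 on both arrays 3 and 4 and 0 were above 0 on both, against 17.1% and 18.1% of all features. Among small-subunit genes 10 of 24 (41.7%) were below 0 on both and 2 above, KRI1 and UTP10. After print block centring 13 of 24 small-subunit genes (54.2%) and 22 of 30 60S genes (73.3%) were below 0 on both, against 21.0% of features. The lowest mean of these 2 arrays was that of NOP15, at -0.86, followed by BRX1, a Brix protein, at -0.73. The median over the 30 genes of the mean of these 2 arrays was -0.40, or -0.38 after print block centring. For the small-subunit genes it was -0.24 and for all features -0.01.

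The other pairs of opposite dye gave smaller shares of 60S genes below 0. On both arrays 1 and 4, 15 of 30 60S genes (50.0%) were below 0, against 21.4% of all features. The small-subunit share was the same there, 12 of 24 (50.0%). Above 0 on both were 2 of the 30 60S genes, against 25.0% of features. On both arrays 2 and 3, 12 of 30 60S genes were below 0, against 26.2% of features, and 3 were above, against 21.1%. On arrays 1 and 2, 5 of 30 60S genes (16.7%) were below 0 on both, against 19.0% of all features. Another 5 of the 30 were above 0 on both, against 16.5% of features. Of 24 small-subunit genes 3 were below 0 on both. The 60S median of the mean of arrays 1 and 2 was 0.10, or 0.17 after print block centring. Over the 66 genes, turned values correlated at r = -0.34 between arrays 1 and 2 and at r = -0.39 between arrays 3 and 4. Over all features these were -0.34 and -0.22. Centring by print block left arrays 1 and 2 at r = -0.46 over the 66 genes, while arrays 3 and 4 came to 0.016. All features then gave -0.36 and 0.015. The negative r of arrays 3 and 4 was thus not kept with the block level removed. The genes share array, print block and dye, and r is given as a description. Setting arrays 3 and 4 first was chosen after the data were seen, and the 4 pairs share arrays. Arrays 1 and 2 also had the wider spread, with SDs over all probes of 0.87 and 0.95, against 0.46 and 0.47 on arrays 3 and 4.

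**Figure D3:**
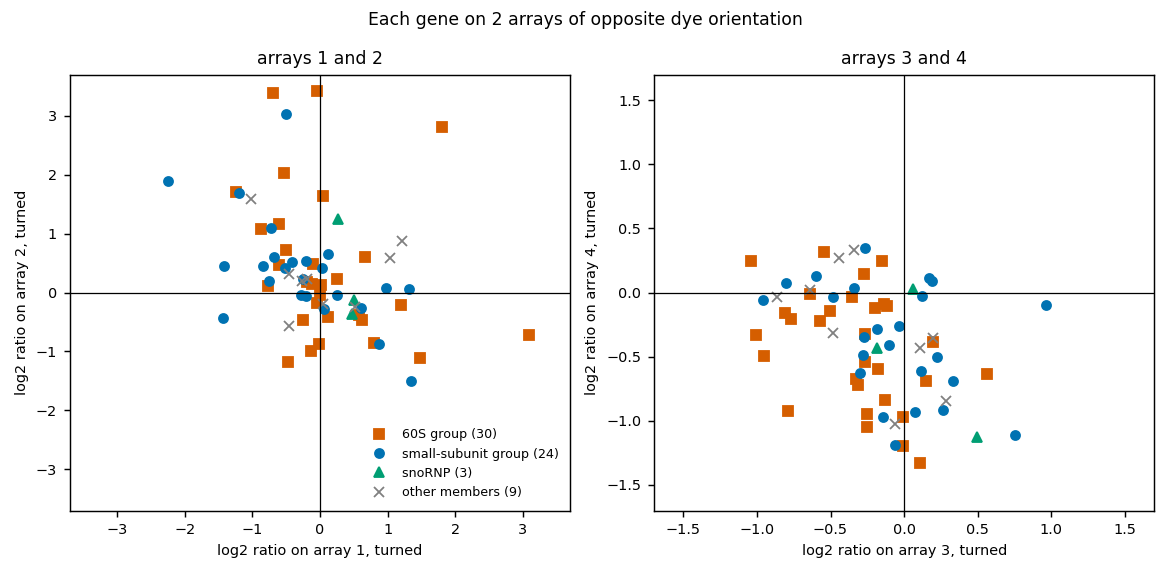
Each point is a gene, with its turned log2 ratio on 1 array on the x axis and on an array of opposite dye orientation on the y axis, for arrays 1 and 2 (left) and 3 and 4 (right, narrower scale). In the right panel 22 of the 30 60S genes lie below 0 on both axes and 0 lie above 0 on both. In the left panel 5 lie below and 5 above on both.

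The subunit groups did not separate from each other over the 4 arrays. The 60S genes had a median of -0.11 and the small-subunit genes of -0.12, while the 3 snoRNP genes had a median of 0.05. On arrays 1 to 4 the 60S median minus the small-subunit median was 0.23, -0.18, -0.18 and -0.04, a mean of -0.05 ± 0.19 (SD, n = 4). The difference was smaller than its spread and changed sign between arrays. The snoRNP median minus the small-subunit median was 0.73, -0.45, 0.14 and -0.12, a mean of 0.08 ± 0.50, again within its spread.

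**Figure D4:**
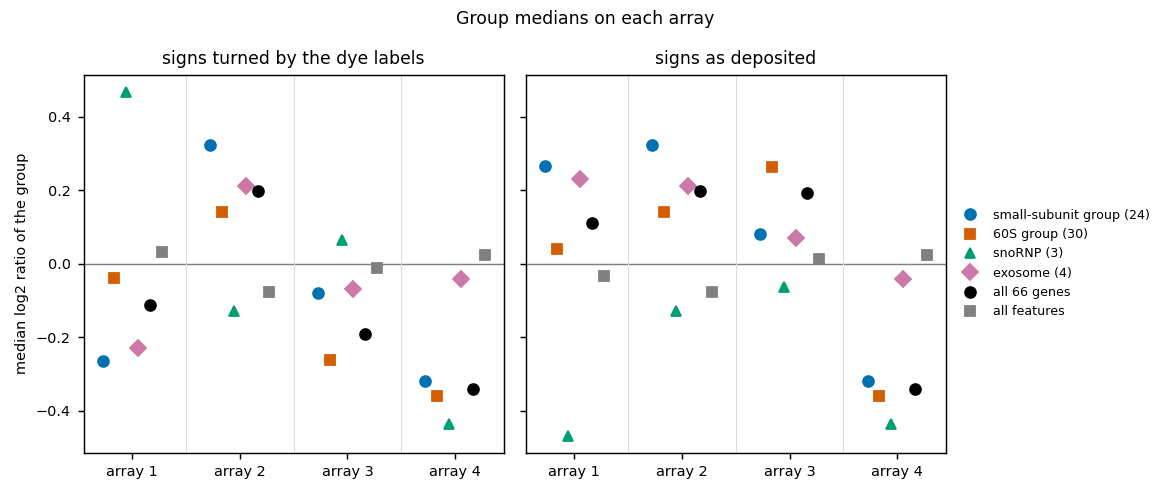
Median log2 ratio (y axis) of each role group and of all features on arrays 1 to 4 (x axis), in turned signs (left) and as deposited (right). On array 4 the 60S, small-subunit and snoRNP medians are -0.36, -0.32 and -0.44 in both panels, and on array 2 the small-subunit and 60S medians are 0.32 and 0.14.

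With the signs as deposited the genes centred on 0. The median of the 66 means was 0.02, against -0.03 over all features, and 30 of 66 were below 0 (45.5%, against 53.5% of features). By array the medians were 0.11, 0.20, 0.19 and -0.34, so array 4 lay apart from the other 3. On array 3 as deposited 19 of the 66 (28.8%) were below 0, against 49.1% of features, and on array 1 29 were, against 51.7%. Limma called 0 of 66 genes (0.00% of features), with a smallest adjusted p of 0.42, and 4 reached an unadjusted p below 0.05 (6.06%, against 11.7% of features).

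The 4 genes were NOP2, ENP1, NOP19 and UTP23. ENP1 had the highest deposited mean of the 66, at 1.26 ± 1.03 (SD, n = 4), and NOP2 averaged 0.81 ± 0.39. NOP19, a factor of the processome that was outside the rule for named genes, averaged -0.69 ± 0.54, and UTP23, another processome factor outside it, -0.77 ± 0.77. With ordinary statistics per gene 2 genes reached an unadjusted p below 0.05, RRP6 and NOP2, and 0 were called after adjustment. The share of all features is again not given for that test.

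As deposited 5 genes, or 7.58% of the 66, were above 0 on all 4 arrays, against 12.4% of all features. They were NOP2, LSG1, UTP8, TSR3 and RRP6, and RRP6 had the smallest spread, with 0.19, 0.23, 0.34 and 0.33 (mean 0.27 ± 0.07, SD, n = 4). None of the 66 was below 0 on all 4 arrays, against 12.3% of features. That count depended on the print blocks. After block centring 6 of the 66 deposited genes were below 0 on all 4 arrays and 8 were above. The share of features after centring is not given here for this reading. The 3 snoRNP genes had deposited means of -0.22 (NOP10), -0.22 (NOP58) and -0.16 (GAR1). Their median minus the small-subunit median was -0.73, -0.45, -0.14 and -0.12 as deposited, a mean of -0.36 ± 0.29, below 0 on each array. With 3 genes and this spread it was not tested.

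The position of a probe on the slide moved with its value. The first number of the probe identifiers takes 48 values and is read as the print block. Over the 70 member probes, the turned value correlated with the median of its block at r = 0.28, 0.76, 0.50 and 0.68 on arrays 1 to 4, given as a description. On array 2 the block medians ran from -0.76 to 1.83, and 496 probes in blocks 45 to 48 had a median of 1.45. Of the 66 genes, 8 were printed there (GAR1, LOC1, NOC3, NOP19, RLP24, RLP7, TSR1 and TSR4), with a median of 2.25 on array 2, against 0.14 for the other 58.

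Centring each block lowered the means of all 8 genes. Those of NOC3, RLP7 and TSR4 came to 0.02, -0.05 and 0.04, and that of LOC1 stayed above 0 at 0.34. GAR1, NOP19 and RLP24 changed sign, to -0.08, -0.10 and -0.19, and TSR1 moved away from 0, to -0.30. RRP1, SSF1 and NOP7 stayed at -0.68, -0.44 and -0.52, and REI1 and BMS1 at 0.61 and 0.46. NOP15 moved to -0.34. The low means of RRP1, SSF1 and NOP7 thus remained near their size with the block level removed, while the means of NOC3, RLP7 and TSR4 did not. DBP7, SOF1 and IMP4, also below 0 on every array before centring, came to -0.04 ± 0.25, -0.05 ± 0.31 and -0.12 ± 0.37. Their means were smaller and their spreads wider than before. DBP2 came to -0.32 ± 0.34.

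**Figure D5:**
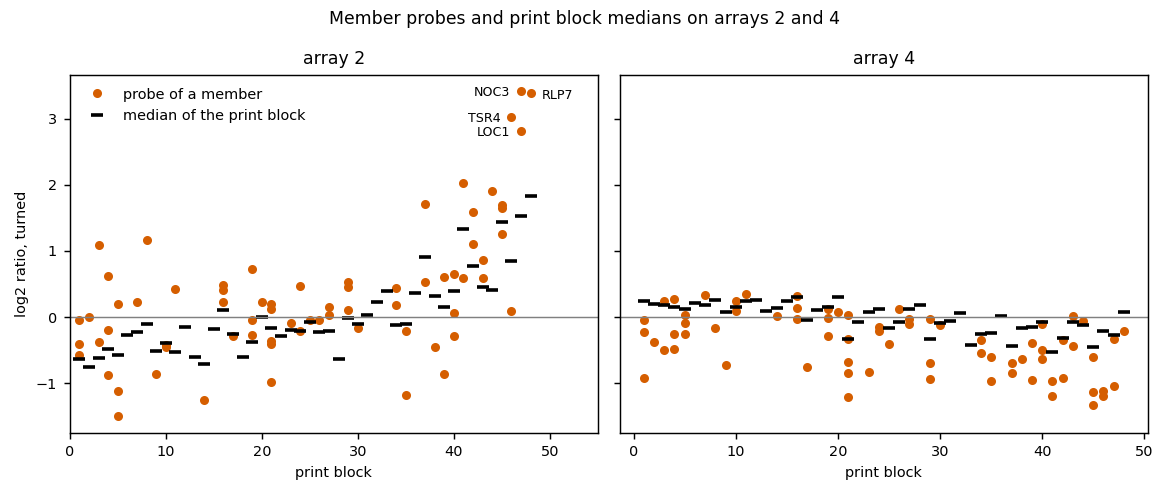
Turned log2 ratio (y axis) of the 70 member probes (points) by print block (x axis), with the median of all probes of each block as a bar, on arrays 2 and 4. On array 2 the block medians climb to 1.83, and the probes of NOC3, RLP7, TSR4 and LOC1, all in blocks 45 to 48, lie highest.

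Other genes of the pathway, which the name rule does not reach, also held no call, but differed from the 66 genes on arrays 1 and 2. Of 85 listed genes 54 were measured, 20 of the small subunit, 23 of the large subunit, 6 of snoRNP assembly or core and 5 of the exosome. Their turned median was -0.10 and 39 of 54 means were below 0 (72.2%, against 52.6% of features). Their array medians were 0.11, -0.15, -0.14 and -0.19, on the other side of 0 from those of the 66 genes on arrays 1 and 2 and on the same side on arrays 3 and 4. Limma called 0, and 1 of 54 had an unadjusted p below 0.05, URB1, against 1.88% of features. Of these 54, RRS1 and MTR4 alone lay below 0 on every array in turned signs, and URB1 alone lay above. The shares of all features were 3.58% below and 3.40% above. On arrays 3 and 4, 21 of 54 (38.9%) were below 0 on both, against 17.1% of features, and on arrays 1 and 2, 8 of 54 were. As deposited their median was -0.10 and 33 of 54 means were below 0, against 53.5% of features. On all 4 arrays 10 of the 54 deposited genes were below 0, against 12.3% of features. Limma called 0 in that reading too, and 9 had an unadjusted p below 0.05, against 11.7% of features.

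URB1, a nucleolar protein needed early in 60S assembly, was the highest and stood on the other side from most of the pathway. It read 1.16, 0.88, 1.07 and 0.48 in turned signs, above 0 on every array, with a mean of 0.90 ± 0.30 (SD, n = 4) and a limma adjusted p of 1.00. Block centring left it at 0.90. DIS3, the catalytic exosome subunit, and REH1, the paralog of REI1, averaged 0.71 ± 1.76 and 0.71 ± 1.83. Both rested on array 2, at 3.26 and 3.43, and averaged -0.14 and -0.20 without it. Block centring lowered DIS3 to 0.23 ± 0.91 and REH1 to 0.40 ± 1.10. REI1 and REH1 were each above 3 on 1 array before centring, REI1 on array 1 and REH1 on array 2. The mean of REI1 was not lowered by centring, at 0.61.

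The lowest of the listed genes were CSL4, RRS1 and CGR1. CSL4, an exosome subunit, averaged -0.58 ± 0.57, and RRS1, which works with Rpf2 in loading the 5S particle, averaged -0.50 ± 0.35 and was below 0 on all 4 arrays. CGR1, a nucleolar 60S factor, averaged -0.48 ± 0.54. RRS1 and RPF2, whose products act together, parted on array 2 at -0.67 and 2.02, where the block of RPF2 had a median of 1.33.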

How the data were processed

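The data are 4 two-colour arrays, each with RNA of the CadA and the D398A strain. The authors deposited a log ratio for every probe on each array, read here as log2, and used limma 3.2.1 per the submitters' processing notes. Its base, numerator, background correction and normalization were not given in the sources used here. All 4 columns matched 1 sample each. Of 6216 probes 6162 had values on all arrays, 3344 had 1 gene symbol, 387 several and 2485 none; 3343 matched the R64 table, and 13 probes pairing a fitting symbol with another gene were not used. The number of arrays limits the precision.

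Each feature's mean was tested against 0 with lmFit and eBayes (limma 3.58.1, R 4.3.3), two-sided, Benjamini-Hochberg over 5946 features, threshold 0.05, after a test on simulated data. Members and lists were chosen with earlier results of these data known. Genes named with values were those of 1 sign on all arrays in either reading, the 5 highest and lowest means, each group's ends, genes with over 1 probe or a value of size 2 or more and, of the other pathway genes, the 3 highest and lowest. Array values of further genes were chosen after they were seen. Promoter sequences were not used here. Alternatives were leaving out each array, block centring, scaling arrays to 1 spread, array weights, the first probe, a dye coefficient, ordinary statistics and deposited signs.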

Additional observations from a re-analysis of the deposited data

Results flagged for a closer look

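Of the 66 genes, 3 had an array far from the other 3 by Dixon's criterion in turned signs (4.55%, against 5.84% of all features), and chance flags about 1 in 20. REI1 read 3.09 on array 1. RLP7 read 3.38 on array 2, in the print block with the highest median there. NOP53, a 60S factor outside the rule for named genes, read -0.55 on array 3, against 0.25, 0.23 and 0.32 on arrays 1, 2 and 4.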

How the results depend on the processing

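The count of called genes was 0 in both readings under every alternative run. In turned signs the median of all 66 genes lay below 0 in each of these fits and ran from -0.26 to -0.04 when 1 array was left out; as deposited it was 0.019. The small-subunit median ran from -0.28 to -0.04 and was 0.064 as deposited. The 60S median ran from -0.31 to 0.0061, above 0 without array 3, and was 0.018 as deposited. The snoRNP median ran from -0.089 to 0.064, and was -0.033 after block centring and -0.22 as deposited. The 60S minus small-subunit difference was 0.010 after block centring. The snoRNP minus small-subunit difference ran from -0.14 to 0.25, and was -0.042 with the first probe of each gene and -0.36 as deposited. The count below 0 on all 4 arrays, 7, was 3 after block centring (added after seeing the data), and 2 of those 3 were among the 7. The count of means below 0, 42, ran from 36 to 49 without 1 array. The cause of these changes was not tested. Among 29 named genes, leaving out 1 array moved 21 by over 1.5 times or changed their sign, and changed the sign of 15. The lowest and highest means without 1 array were -1.09 and 0.30 for ENP1, -0.12 and 0.67 for GAR1, -0.080 and 0.17 for LSG1, -0.46 and 1.02 for NOC3, -0.44 and 0.071 for NOP13, -0.55 and 0.15 for NOP2, -0.25 and 0.064 for NOP58, -0.32 and 0.96 for REI1, -0.56 and 0.83 for RLP7, -0.58 and 0.50 for RPF2, -0.31 and 0.070 for RRP40, -0.39 and 0.48 for RRP45, -0.10 and 0.12 for RRP6, -0.58 and 0.82 for TSR4 and -0.33 and 0.018 for UTP8. Block centring turned GAR1 to -0.080, LSG1 to -0.015, RLP7 to -0.050, RPF2 to -0.049 and RRP45 to -0.16. Each array holds both strains, so each ratio already pairs them, and all 4 arrays form 1 group with no further pairing. The number of arrays limits the precision, and signal over background was not used here.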
